A study of Homo sapiens with 17 samples.

Results

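Described here are 62 genes in L363, a human multiple myeloma cell line: 57 genes of cytosolic ribosomal proteins and their paralogs, the elongation factors EEF1A1, EEF1D and EEF2, the poly(A)-binding protein PABPC1, and TPT1, the translationally controlled tumour protein. They were chosen by name from the array annotation and not by their values, and they are 62 of 19775 genes measured (137 of 54613 probe sets). The study hybridised RNA of 6 groups of cells, taken after 48 hours, to 17 arrays. The groups were untreated cells (control, 3 arrays), 0.5 uM MS275, an inhibitor of class I histone deacetylases (3 arrays), rapamycin, an inhibitor of the kinase mTOR, at 1 nM (3 arrays) or 10 nM (3 arrays), MS275 with 1 nM rapamycin (the 1 nM combination, 3 arrays) and MS275 with 10 nM rapamycin (the 10 nM combination, 2 arrays). The submitters removed 1 array at quality control. All groups are of 1 cell line, and the labels do not say whether replicates were separate cultures, so the p-values measure the spread between arrays, which may be technical.

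Ribosomal proteins assemble with ribosomal RNA into the small subunit, which decodes the messenger RNA, and the large subunit, which joins the amino acids. In vertebrates nearly all of their messenger RNAs, with those of elongation factors, PABPC1 and TPT1, begin with a cytosine and an unbroken run of pyrimidines, the 5′ terminal oligopyrimidine (TOP) motif. mTOR complex 1 controls the translation of these messages, in large part through the cap-binding protein LARP1, and inhibition of mTOR moves them out of polysomes. LARP1 also protects TOP messages from decay, so that their RNA level need not follow their translation. The arrays measured RNA level only, and in a bulk sample fewer cells and less RNA per cell cannot be told apart. The comparisons ask whether the RNA of this class differed after rapamycin, after MS275 and after both.

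The motif is shown by 30 bases around the annotated start of transcription, 10 before it and 20 from it, because these starts are what defines the class. Starts and sequences are those of RefSeq on GRCh38.p14, written 5′ to 3′ on the gene's strand, and capitals mark the pyrimidine run that opens with C at the start. The first 9 have the motif and the last 2, both of paralogs, do not.
EEF1A1 (chr6:73521013-73521042, minus strand): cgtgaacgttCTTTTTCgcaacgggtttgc
EEF2 (chr19:3985444-3985473, minus strand): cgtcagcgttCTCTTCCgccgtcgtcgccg
TPT1 (chr13:45341164-45341193, minus strand): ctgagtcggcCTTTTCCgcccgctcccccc
RPL34 (chr4:108620566-108620595, plus strand): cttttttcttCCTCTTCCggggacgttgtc
RPL14 (chr3:40457329-40457358, plus strand): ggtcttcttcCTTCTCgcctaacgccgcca
RPL41 (chr12:56116623-56116652, plus strand): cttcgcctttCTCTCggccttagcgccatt
RPS24 (chr10:78033853-78033882, plus strand): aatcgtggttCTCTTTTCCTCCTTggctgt
RPS25 (chr11:119018324-119018353, minus strand): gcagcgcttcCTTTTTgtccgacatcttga
RPS27 (chr1:153990752-153990781, plus strand): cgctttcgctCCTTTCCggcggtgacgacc
RPL10L (chr14:46651762-46651791, minus strand): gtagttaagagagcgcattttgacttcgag
RPS27L (chr15:63157458-63157487, minus strand): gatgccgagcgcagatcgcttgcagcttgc

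The motif searched was C at the start followed by at least 4 C or T, on the gene's own strand, at any start listed for the gene. Of the 62 genes 52 were in the promoter table, and 37 of these (71.2%) had the motif at a listed start, against 1404 of 27305 genes in the table (5.14%). Allowing the motif to open within 5 bases of the start gave 44 of the 52 (84.6%) and 25.2% of all genes. The run in the 37 genes was 5 to 19 bases long with a median of 8. RPS24, with 14, has the longest run shown, and RPL41, with 5, has the shortest that the search allows. The 15 genes without a match at a listed start were RPL3, RPL6, RPL9, RPL10A, RPL19, RPL27, RPL32, RPS4X, RPS7, RPS15, RPS28, RPS29 and the paralogs RPL10L, RPL36AL and RPS27L. RPL34 has a second listed start a short way downstream, which lacks the motif. A match describes the annotated start and not the start used in these cells.

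These genes were among the brightest on the arrays. Values are log2 signals as the authors deposited them. The level of a gene, taken as its mean over the 17 arrays, had a median of 13.45 over the 62 genes and of 6.07 over all genes. Of the 100 genes of highest mean signal 52 belonged to the set, as did 32 of the top 50. Signals of different probe sets do not compare as amounts of RNA, so the order of genes carries no meaning beyond brightness. The brightest were RPS10 (14.15), a small subunit protein near the messenger's entry channel, and RPS15 (14.08). The small subunit genes lay between 12.08 (RPS25) and 14.15. The dimmest were RPL3L (4.20), a paralog known from muscle, and RPL36A (5.84). RPL27A lay at 8.19, and of the stalk proteins, which recruit elongation factors, RPLP2 lay at 7.01. RPL36A, RPL27A and RPLP2 rest on dim probe sets and may be poorly measured. The testis paralog RPL10L lay at 6.36.

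The set is incomplete. Of 77 canonical ribosomal proteins 52 had a probe set annotated with a single symbol. The other 25, with EEF1B2 and EEF1G, are not analysed here. Of the 62 chosen probe sets, 27 have the suffix for probes shared by transcripts of one family (s_at) and 22 the suffix for probes that can hybridise to other genes (x_at). Ribosomal protein genes have many near-identical processed pseudogenes, so the origin of these signals is uncertain. The labelled cell type was checked by its markers: all 8 plasma cell markers were measured, with control means from 8.37 to 13.09 (SDC1, CD138), while the medians of markers of B cells, T cells, myeloid, red, epithelial and fibroblast cells lay between 4.56 and 5.62, below the all-gene control median of 6.04. Single markers of these lay above that median, among them CD22 (7.05), COL1A1 (6.97) and CDH1 (6.67). Of the 4 red cell markers 2 were measured. Control replicate 1 and 1 nM combination replicate 1 stood apart from the other 15 arrays by a narrow range: the SD of their probe set values was 2.14 and 2.15, and that of the others ran from 2.27 to 2.37.

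Before any comparison, the 3 control arrays disagreed on these genes. Each gene's mean over the 17 arrays was subtracted from its value on each array. The median of the 62 deviations was -0.23 on control replicate 1, -0.05 on replicate 2 and -0.64 on replicate 3. On the 14 treated arrays it lay between -0.04 and 0.22. Control replicate 3 was thus the lowest array, and replicate 2 lay just under the lowest treated array. The within-group SD of a gene had a median of 0.42 in control and 0.08 to 0.21 in the treated groups. Over all genes it was 0.40 in control and 0.17 to 0.35 in the treated groups, so the control arrays spread most for genes in general.

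**Figure D1:**
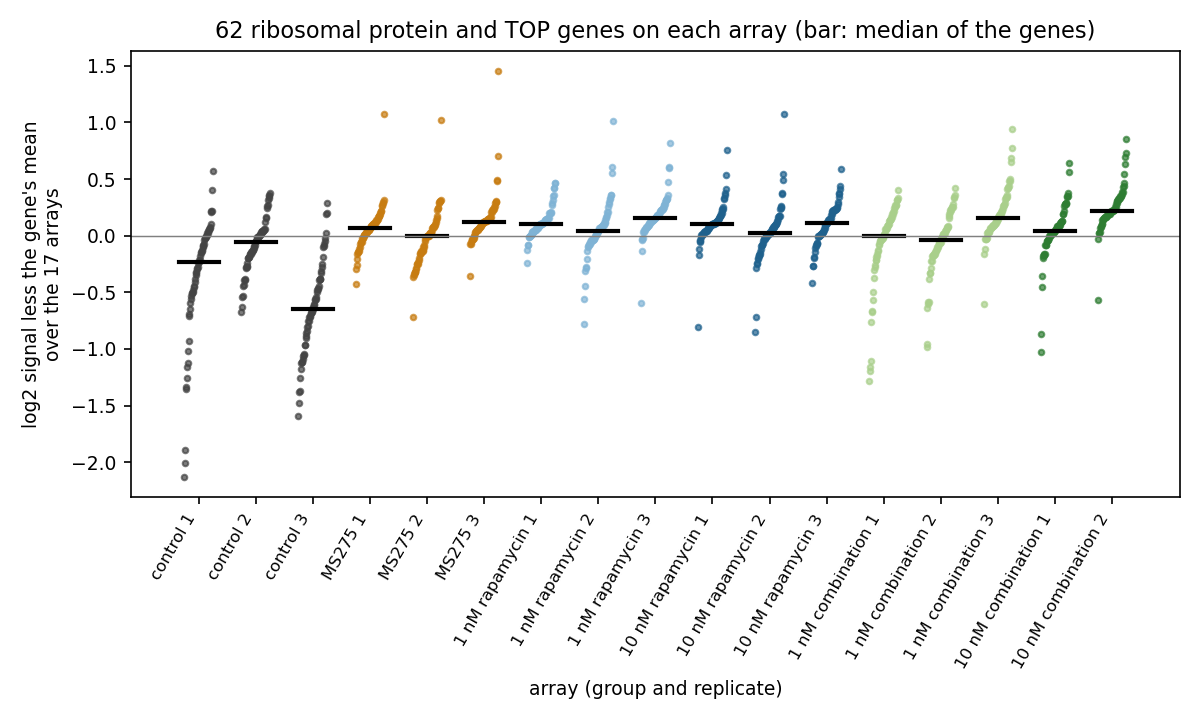
Each point is 1 of the 62 genes on 1 of the 17 arrays; the vertical axis is its log2 signal less its mean over the 17 arrays, and the bar is the median of the genes. The medians of control replicates 1 and 3 lie at -0.23 and -0.64, below the 14 treated arrays, which run from -0.04 to 0.22.

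Control replicate 3 was the lowest of all 17 arrays for 37 of the 62 genes, control replicate 1 for 15 and control replicate 2 for 3. Control replicate 3 lay below all 14 treated arrays for 47 of 62 genes, against 8.76% of all genes. For control replicate 1 this held for 31 genes (13.6% of all genes) and for control replicate 2 for 18 genes (11.4% of all genes). On control replicate 2, 43 of the 62 genes lay within the range of the treated arrays, against 16273 of all 19775 genes. The low values of replicate 3 were spread over both subunits. They fell below all treated arrays for 24 of 30 large subunit and 17 of 20 small subunit genes. RPL36 had a control signal of 12.58, 12.67 and 11.30 in the order of the replicates, and RPS12 of 13.07, 13.01 and 12.02. RPL31 had 13.33, 12.90 and 12.19. These 3 were picked after their values were seen, as examples of genes low on replicate 3 alone or lowest there.

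EEF1A1, EEF2 and PABPC1 did not share the low values of control replicate 3, while EEF1D and TPT1 lay below all treated arrays there too. EEF1A1, which brings aminoacyl-tRNA to the ribosome, had control signals of 13.98, 13.90 and 14.23. EEF2, which moves the ribosome along the message, had 12.93, 12.77 and 13.19. PABPC1 had 13.44 on replicate 2 and 13.73 on replicate 3, its highest array of the 17, and its lowest value on replicate 1. The median deviation of the 3 elongation factors on replicate 3 was 0.02. A list of 124 other genes with a mean of at least 12, drawn up after the data were seen, had a median of -0.05 there, and the 22 measured genes of a further list of TOP mRNAs, such as initiation factor subunits, had 0.03. The 4 measured hosts of small nucleolar RNAs, which are TOP transcripts too, had -0.95 on replicate 3, -0.58 on replicate 2 and 0.20 on replicate 1. What sets control replicate 3 apart was not tested.

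**Figure D2:**
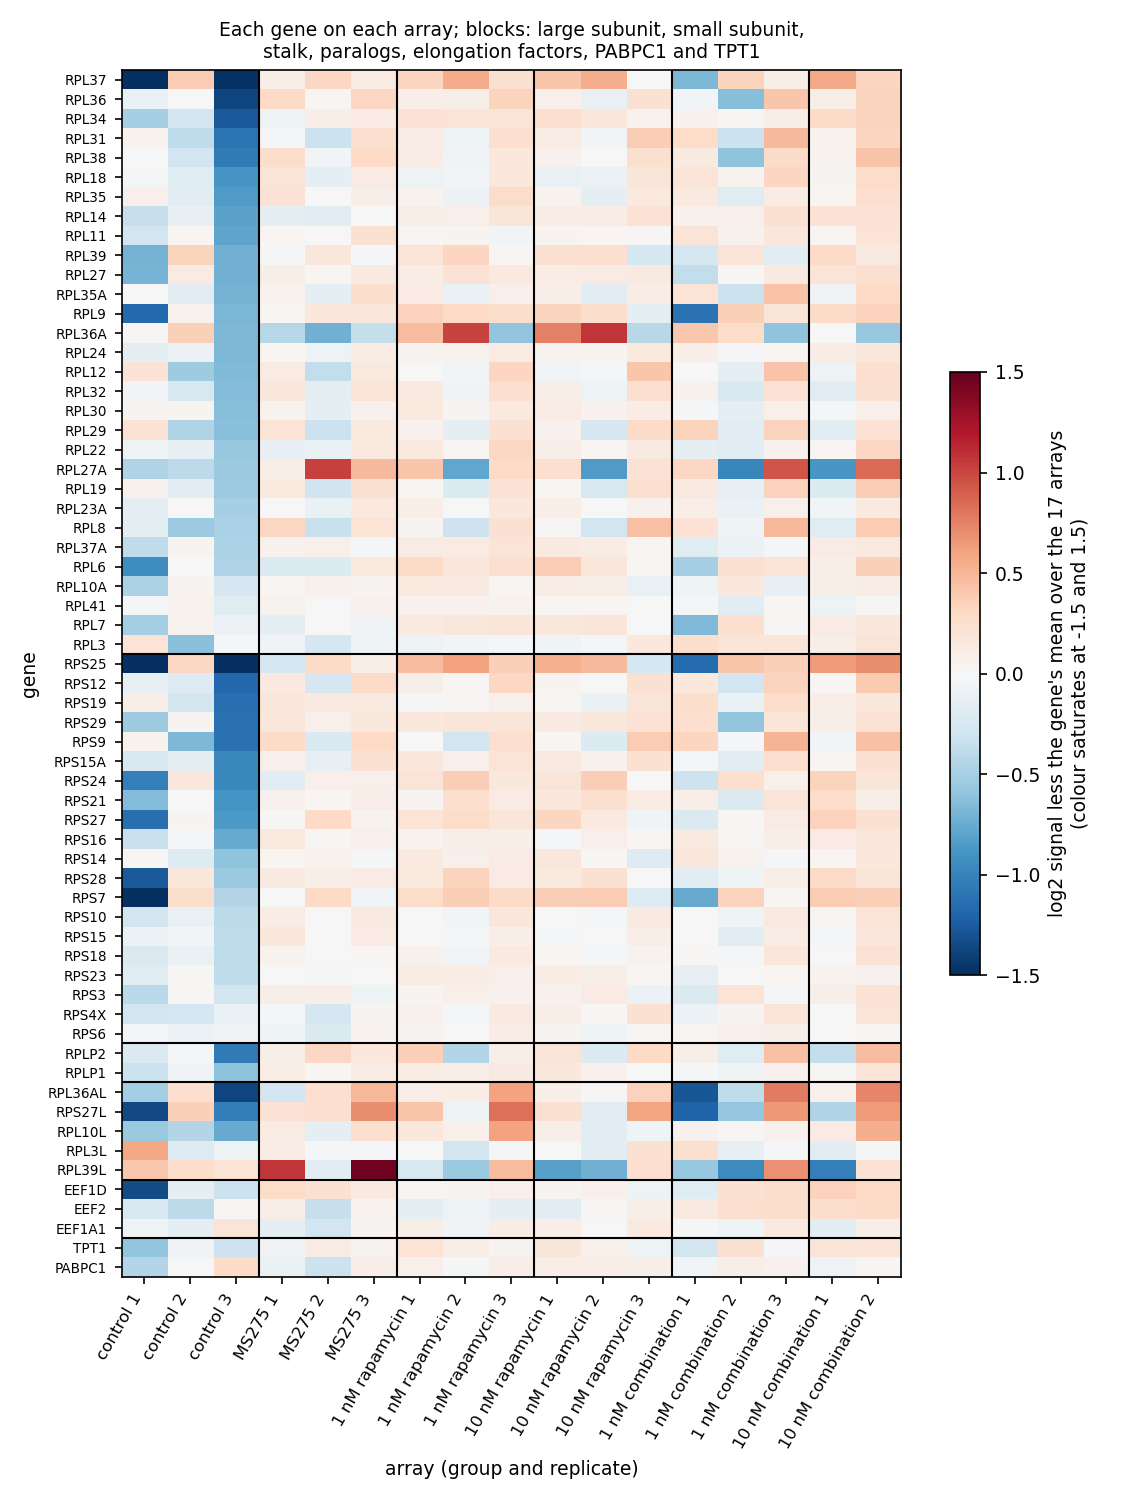
Rows are the 62 genes in blocks by role and columns are the 17 arrays; colour is the log2 signal less the gene's mean over the arrays. The column of control replicate 3 is low through both subunit blocks and not in EEF1A1, EEF2 or PABPC1, while control replicate 1 and 1 nM combination replicate 1 are low for a subset of genes.

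Control replicate 1 lay more than 1 log2 unit below control replicate 2 for 10 of the 62 genes (16.1%), near the 13.0% of all genes. Control replicate 3 did so for 10 (16.1%), against 2.85% of all genes. For a few genes replicate 1 was the lowest. RPS25, a small subunit protein, had 10.08, 12.40 and 10.49 on the control arrays. RPL37 had 10.63, 13.14 and 11.28, and RPS7 had 11.35, 13.51 and 12.79. On these genes replicate 1 was the lowest and replicate 2 lay among the treated arrays. EEF1D, a subunit of the exchange factor of EEF1A1, had 11.03, 12.24 and 12.04. The other narrow array, 1 nM combination replicate 1, was low for the first 3 as well: RPS25 had 10.93 there against 12.50 and 12.45 on the other two arrays of its group. RPL37 had 12.09 there against 13.10 and 12.86, and RPS7 had 12.48 against 13.58 and 13.27. The part of the narrow range in these values was not tested. Probe sets of one gene did not always share the pattern. The chosen probe set of RPS6, the small subunit protein phosphorylated downstream of mTOR, deviated by -0.01 on control replicate 1. Other bright ones of RPS6 deviated by -0.56 and -2.08 there. The chosen probe set of EEF1D deviated by -1.34, -0.13 and -0.33 on the control arrays. A second bright one of EEF1D deviated by -0.53, -0.53 and -0.58, about alike on all of them.

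Against the mean of the 3 control arrays, nearly all of the 62 genes had a higher mean signal in each treated group, and very few passed the test. The median log2 difference was 0.41 with MS275, 0.42 with 1 nM rapamycin and 0.39 with 10 nM rapamycin. It was 0.37 with MS275 and 1 nM rapamycin and 0.47 with MS275 and 10 nM. Over all genes the medians were -0.05, -0.12, -0.07, 0.02 and -0.08 in the same order. The difference was above 0 for 57, 60, 60, 59 and 58 of the 62 genes, against 8528, 6911, 7780, 10482 and 7966 of 19775. These 5 comparisons share their control arrays and are not independent of each other. Small subunit genes had medians from 0.48 to 0.57 and large subunit genes from 0.36 to 0.45.

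The test was limma's moderated test over all 17 arrays, with Benjamini-Hochberg adjustment over all 19775 genes and a threshold of 0.05. With MS275, 0 of 62 genes passed (1.49% of all genes did, 1.04% higher and 0.455% lower), and 21 had an unadjusted p under 0.05 (10.8% of all genes). With 1 nM rapamycin 0 passed (0.101% of all genes), and 29 had an unadjusted p under 0.05 (8.05% of all genes). With 10 nM rapamycin 0 passed (0.435% of all genes), and 24 had an unadjusted p under 0.05 (6.96% of all genes). In the 1 nM combination 0 passed (2.7% of all genes), and 20 had an unadjusted p under 0.05 (12.6% of all genes). In the 10 nM combination 2 passed, RPL34 and RPL10L, both higher (3.3% of all genes passed, 1.06% higher and 2.24% lower), and 31 had an unadjusted p under 0.05 (14.2% of all genes). The 95% confidence interval of a difference in this set reached a median of 0.44 above and below it, and 0.49 for the 10 nM combination.

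Counts of genes whose arrays did not overlap with the control arrays were larger. All treated arrays lay above all control arrays for 16 of 62 genes with MS275 (5.7% of all genes), 31 with 1 nM rapamycin (4.18%) and 19 with 10 nM rapamycin (3.12%). In the 1 nM combination this held for 14 genes (4.97%), and in the 10 nM combination, with 2 arrays, for 36 (8.46%). All treated arrays lay below all control arrays for 0 of 62 genes in each of these 5 comparisons, against 5.34%, 8.03%, 4.93%, 5.61% and 13% of all genes in the same order.

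The size of the difference depended on the control array used. Against control replicate 3 alone, the median over the 62 genes was 0.69 with MS275, 0.75 with 1 nM and 0.72 with 10 nM rapamycin, and 0.66 and 0.75 in the 1 nM and 10 nM combinations. Against control replicate 1 it was 0.31, 0.29, 0.31, 0.30 and 0.37 in that order. Against control replicate 2 it was 0.11, 0.16, 0.13, 0.10 and 0.21. The medians over all genes against control replicate 1 ran from -0.29 to -0.16, opposite in sign to those of the set. Against control replicate 2 they ran from 0.03 to 0.16, and in the 1 nM combination the median of all genes (0.16) exceeded that of the set (0.10). After quantile normalization the medians of the set were 0.45 to 0.56 against control replicate 3, 0.13 to 0.16 against replicate 1 and 0.02 to 0.11 against replicate 2. In the fit without control replicate 3 the medians of the set fell to 0.24, 0.26, 0.26, 0.22 and 0.32.

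**Figure D3:**
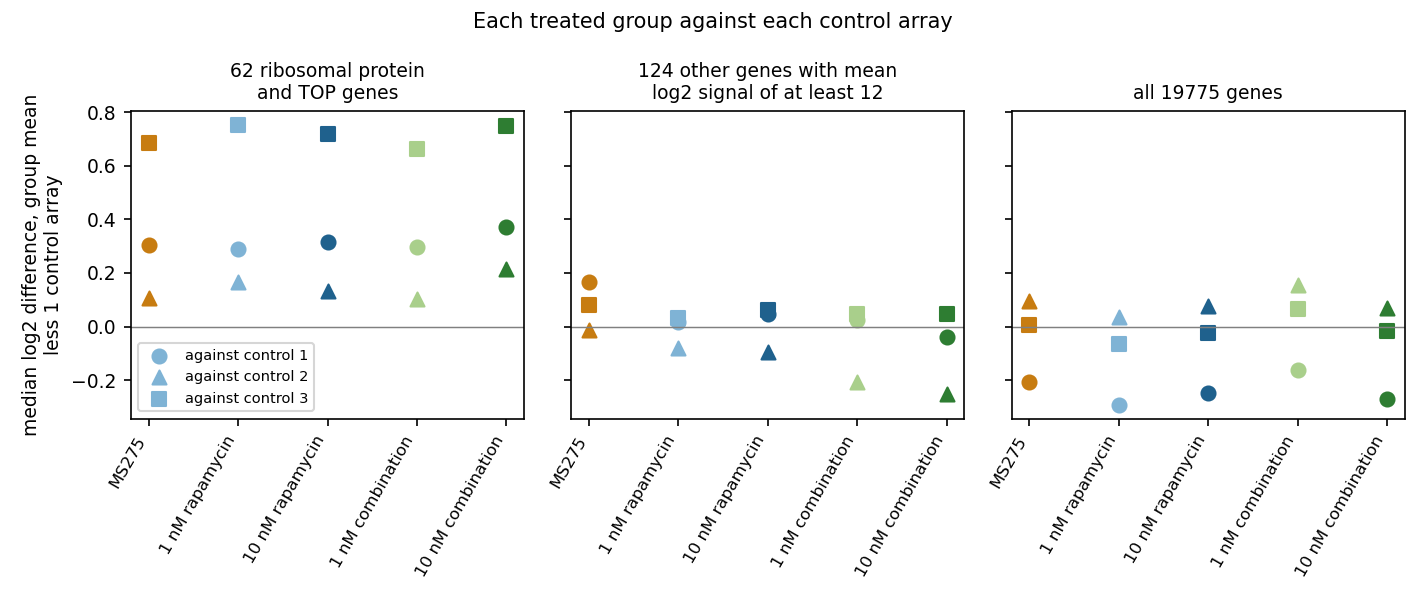
The vertical axis is the median log2 difference between a treated group's mean and 1 control array; symbols mark the control replicate, and panels show the 62 genes, 124 other genes with a mean log2 signal of at least 12, and all 19775 genes. For the 62 genes the medians are 0.66 to 0.75 against control replicate 3 and 0.10 to 0.21 against control replicate 2.

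Leaving out control replicate 2 had the opposite effect on the calls. Without it 8 of 62 genes passed with MS275, 8 with each dose of rapamycin, 8 with MS275 and 1 nM rapamycin and 13 with MS275 and 10 nM, all higher. In the same fits 1.35%, 0.369%, 0.496%, 2.12% and 3.49% of all genes passed, for MS275, 1 nM and 10 nM rapamycin and the combinations in order of dose. RPL34, RPL37, RPS21, RPS24, RPS25, RPS27 and RPS28 passed in all 5, with limma adjusted p from 0.00245 to 0.0494. The 2 arrays that then stand for control are the narrow replicate 1 and replicate 3. The log2 difference of RPL37 was then 1.98 with MS275 and 2.17 with 1 nM rapamycin, against 1.26 and 1.44 with all 3 control arrays. Without control replicate 1, 0 genes passed with either single drug, 3 passed in the 1 nM combination (RPL34, RPS9 and RPS19) and 2 (RPL34 and RPL10L) in the other. The shares of all genes that passed in this fit are not given here, so these counts cannot be set against genes in general.

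The 3 control arrays lay below all 14 treated arrays for RPL10L, RPL24, RPL34, RPLP1, RPS10 and RPS18. The share of all genes with this pattern is not given here. Among these genes, RPL34 and RPL10L passed in a comparison and the others in none. RPL34 is a large subunit protein. Its control signals were 12.69, 12.91 and 11.93. With MS275 it had 13.11, 13.28 and 13.32, with 1 nM rapamycin 13.40, 13.39 and 13.38, and with 10 nM rapamycin 13.43, 13.36 and 13.24. The 1 nM combination had 13.25, 13.21 and 13.29 and the 10 nM combination 13.47 and 13.52. All 14 treated arrays lay above the 3 control arrays. Its log2 difference from control was 0.73 ± 0.20 with MS275 (SE, limma adjusted p = 0.0991), 0.88 ± 0.20 with 1 nM rapamycin (adjusted p = 0.125), 0.83 ± 0.20 with 10 nM (adjusted p = 0.106), and 0.74 ± 0.20 in the 1 nM combination (adjusted p = 0.0702). It passed with 10 nM rapamycin and MS275, where it rose by 0.99 ± 0.22 (adjusted p = 0.0261). It did not pass after quantile normalization (0.86) or when the 10 nM combination was left with 1 array (1.01 and 0.96). With the replicate number as a block it passed in the 1 nM combination too (adjusted p = 0.045). RPL34 rests on 1 probe set.

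RPL10L, an intronless paralog of RPL10 known from testis, was a dim gene that differed. Its control signals were 5.80, 5.92 and 5.60 and its treated signals ran from 6.19 to 6.96, so again no treated array overlapped with control. It rose by 0.92 ± 0.20 in the 10 nM combination (SE, limma adjusted p = 0.0236). The difference was 0.66 ± 0.18 with MS275 (adjusted p = 0.0953) and 0.86 ± 0.18 with 1 nM rapamycin (adjusted p = 0.0929). With 10 nM rapamycin it was 0.54 ± 0.18, and with MS275 and 1 nM rapamycin 0.63 ± 0.18. The call in the 10 nM combination was lost without control replicate 3 (0.83) and without replicate 2 of the 10 nM combination (0.71). Its level lay near the median of all genes, and cross-hybridisation with RPL10, which has no singly named probe set here, was not tested.

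**Figure D4:**
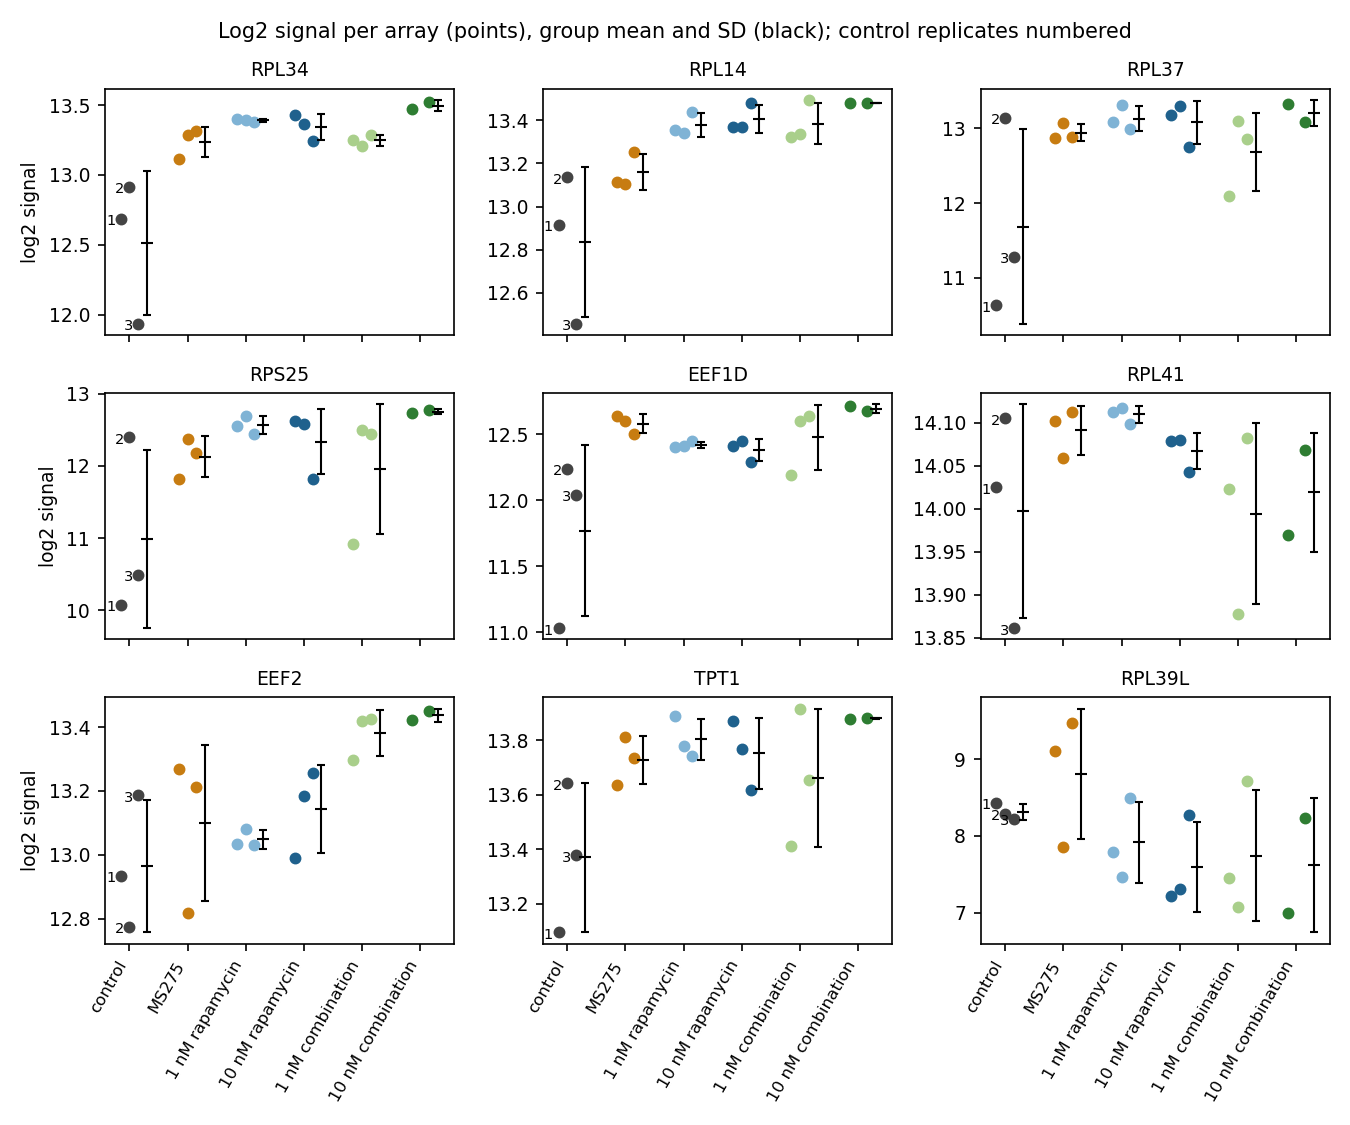
Log2 signal of 9 genes in the 6 groups; points are arrays, control replicates are numbered, and black bars are the group mean and SD. RPL34 lies higher on the 14 treated arrays than on the control arrays, RPL14 lies higher on the arrays with rapamycin than on the others, RPS25 and RPL37 are low on control replicates 1 and 3, and EEF2 is highest in the combinations.

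Rapamycin was also tested as an average, the mean of the 1 nM and 10 nM effects with and without MS275. The set's median was 0.23 and 59 of 62 genes were above 0 (-0.04 over all genes). The baseline of this average holds the control arrays with the MS275 arrays, so the low control values raise it. Against MS275 alone the medians of the combinations were near 0, as given below. Of the 62 genes 1 passed, RPL14 (2.35% of all genes passed, 0.41% higher and 1.94% lower), and 19 had an unadjusted p under 0.05 (11% of all genes). RPL14, a large subunit protein, had control signals of 12.92, 13.14 and 12.46 and MS275 signals of 13.12, 13.11 and 13.26. With 1 nM rapamycin it had 13.36, 13.34 and 13.44, with 10 nM 13.37, 13.37 and 13.48, and in the combinations 13.32, 13.34, 13.49, 13.48 and 13.48. All 11 arrays with rapamycin lay above all 6 without it. It rose by 0.41 ± 0.10 in the rapamycin average (SE, limma adjusted p = 0.0476). The call was lost after quantile normalization (0.33), with probe sets averaged (0.36), with genes under a mean of 6 left out, and without any 1 of 14 of the 17 arrays, among them control replicate 3 (0.32). A second bright probe set of RPL14 gave 0.63, and a dim one, the only one without an s_at or x_at suffix, gave 0.02.

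The largest differences in the rapamycin average did not pass. In the large subunit they were RPL37 (0.71 ± 0.29, limma adjusted p = 0.334), RPL34 (0.50 ± 0.12, adjusted p = 0.0543) and RPL6 (0.43 ± 0.15, adjusted p = 0.228). In the small subunit they were RPS25 (0.84 ± 0.32, adjusted p = 0.281), RPS7 (0.48 ± 0.26, adjusted p = 0.55) and RPS24 (0.48 ± 0.16, adjusted p = 0.215). For all 6 the lowest control array lay under every array of rapamycin alone. Without the narrow control replicate 1 the average of RPS7 was 0.18 and that of RPL37 0.45. That of RPS25 was then 0.62, of RPL6 0.31, of RPS24 0.38 and of RPL34 0.54, of which RPL34 alone passed (adjusted p = 0.0457). With all arrays the highest SE of the 6 belongs to RPS25, whose control signals span 2.32. The smallest differences were those of RPL27A (-0.05), RPL41 (0.00) and RPL30 (0.15) in the large and of RPS15 (0.07), RPS6 (0.09) and RPS10 (0.14) in the small subunit. RPL41, a very short peptide of the large subunit, kept within 13.86 to 14.12 over the 17 arrays. The highest signal of any probe set on an array was 14.48 to 14.76. Whether signals so near that top can show a change was not tested. For RPS15 and RPS6 the sign turned when only probe sets without an s_at or x_at suffix were used (-0.27 and -0.09), both of which are dim. Other bright probe sets of RPS6 gave 0.36 and 0.69, above its chosen one, so its small difference holds for that probe set only.

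The genes with the motif at a listed start did not stand above those without it there. Counted as without it are RPL3, RPL10A, RPL19, RPL32, RPL36AL, RPS7 and RPS28, which have it opening within 5 bases of a start. The split is thus by annotated start and does not divide TOP from other messages. The median rapamycin average was 0.22 over the 37 genes with the motif at a listed start and 0.28 over the 15 genes without, and 36 and 15 of them were above 0. On control replicate 3 the medians of the deviations were -0.71 and -0.56, and on control replicate 1 they were -0.18 and -0.53. RPS7, RPL9 and RPS28, low on control replicate 1, are among the genes without the motif at a listed start, while RPS25 has it. No test was made of these differences.

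The tests that follow are of the chosen probe sets. Of the translation factors, EEF1A1 was at 13.76 to 14.23 over all arrays and differed by 0.10 ± 0.09 in the rapamycin average (SE, limma adjusted p = 0.81). Its other bright probe sets gave 0.29, 0.26 and 0.22, and deviated by -0.95, -0.79 and -0.68 on control replicate 1. PABPC1 differed by 0.12 ± 0.11 (adjusted p = 0.804). TPT1, a growth-related protein and classical TOP message, had control signals of 13.09, 13.64 and 13.38 against 13.41 to 13.92 on treated arrays, and differed by 0.23 ± 0.11 (adjusted p = 0.46). Its other probe sets gave 0.41, 0.39, 0.37 and 0.53, and deviated by -1.92, -0.94, -1.27 and -1.85 on control replicate 1. EEF1D differed from control by 0.81 ± 0.24 with MS275 (adjusted p = 0.139) and by 0.93 ± 0.27 in the 10 nM combination (adjusted p = 0.0885). Without control replicate 1 these differences were 0.44 ± 0.15 (adjusted p = 0.214) and 0.56 ± 0.17 (adjusted p = 0.103). Without both narrow arrays EEF1D passed in the 10 nM combination (0.56 ± 0.12, adjusted p = 0.0242). EEF2 had its highest values in the combinations: 13.30, 13.42 and 13.42 with 1 nM and 13.42 and 13.45 with 10 nM rapamycin, above every other array. In the 1 nM combination it differed by 0.42 ± 0.16 from control (adjusted p = 0.243), by 0.28 ± 0.16 from MS275 (adjusted p = 0.981) and by 0.33 ± 0.16 from 1 nM rapamycin (adjusted p = 0.409). None passed.

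The comparisons that leave out the control arrays had medians near 0. The 1 nM combination against MS275 had a median of -0.04 over the 62 genes, and 0 passed (0.106% of all genes, limma), with 1 at an unadjusted p under 0.05 (4.44% of all genes). The 10 nM combination against MS275 had 0.09, and 0 passed (0.253% of all genes), with 1 at an unadjusted p under 0.05 (4.5% of all genes). The 1 nM combination against 1 nM rapamycin had -0.08, and 0 passed (1.23% of all genes). The 10 nM combination against 10 nM rapamycin had 0.08, and 0 passed (0.435% of all genes). Neither of these last had a gene at an unadjusted p under 0.05 (12.4% and 7.34% of all genes). The rapamycin doses differed by -0.03 without MS275 and by 0.10 with it, and 0 passed in either (0% of all genes), also at an unadjusted p under 0.05 (0.121% and 0.769% of all genes).

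The same comparisons were counted array by array. The 1 nM combination lay above MS275 without overlap for 3 of 62 genes (3.76% of all genes), and the 10 nM combination for 17 (6.39%). Against the same dose of rapamycin alone, the 1 nM combination lay above for 3 (14.9%) and below for 8 (6.8% of all genes), and the 10 nM combination lay above for 8 (9.8%). The arrays of 10 nM rapamycin lay above those of 1 nM for 0 genes (4.69%), and those of the 10 nM combination above the 1 nM combination for 11 (1.9%). The shares for the 10 nM combination rest on 2 arrays. RPL39L was 1.07 ± 0.49 and 1.19 ± 0.55 below MS275 in the 1 nM and 10 nM combinations (SE), and RPS25 was 0.80 ± 0.57 higher in the 10 nM than in the 1 nM combination.

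The MS275 average, taken over cells without and with rapamycin, had a median of 0.13 over the set, and 0 of 62 genes passed (8.13% of all genes, limma). At an unadjusted p under 0.05 there were 4 (18.4% of all genes). The control arrays are part of the baseline of this average too, so their low values raise it. The interaction, which asks whether both drugs together differed from the added effects of each, had a median of -0.38 averaged over doses, and 5 of 62 genes were above 0. Of the 62 genes 0 passed (0.0101% of all genes), and 12 had an unadjusted p under 0.05 (2.75% of all genes). The interaction counts the control arrays with a positive sign, so their low values lower it. Over all 14 comparisons 59 of the 62 genes passed in none.

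The remaining paralogs gave no call. RPL39L, a paralog of RPL39 that is high in testis and in some tumours, had control signals of 8.43, 8.29 and 8.22 and MS275 signals of 9.10, 7.86 and 9.48. With 10 nM rapamycin it had 7.21, 7.30 and 8.27, and the 10 nM combination had a mean of 7.62 ± 0.88 (SD, n = 2). Its rapamycin average was -0.84 ± 0.31 (SE, limma adjusted p = 0.261), and replicate 3 was the highest array in each treated group of 3. RPS27L, a p53-regulated paralog of RPS27, had control signals of 9.74, 11.46 and 10.05 and differed by 0.23 ± 0.31. RPL36AL, a paralog of RPL36A expressed in many tissues, differed by 0.33 ± 0.29, and RPL3L by -0.10 ± 0.12. These 4 passed in none of the 14 comparisons.

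The genes that surround the class gave few calls. Of the 22 measured further TOP mRNAs 0 rose and 1 fell with MS275 (1.04% and 0.455% of all genes): EIF3A, the largest subunit of initiation factor 3. It had control signals of 10.01, 9.99 and 10.05 and MS275 signals of 8.89, 9.18 and 9.52, a fall by 0.82 ± 0.17 (SE, limma adjusted p = 0.0285). It fell in the MS275 average as well, by 0.45 ± 0.10 (adjusted p = 0.0141). In the 4 other comparisons with control 0 of the 22 passed. In the rapamycin average 1 rose (0.41% of all genes did), NACA, a chaperone subunit at the ribosome's exit tunnel (0.48, adjusted p = 0.0488, limma), named after its value was seen. Of the 4 snoRNA hosts 0 passed. ZFAS1 had the control signals 11.80, 11.34 and 10.54 and a rapamycin average of 0.47 ± 0.24, EPB41L4A-AS1 had 0.78 ± 0.29 and SNHG32 had 0.53 ± 0.23.

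Of the 20 measured regulators of TOP translation and mTOR signalling 0 passed in any comparison with control or in either average. LARP1 itself differed by 0.08 ± 0.10 in the rapamycin average (SE, limma adjusted p = 0.859) and RPS6KB1, the S6 kinase, by 0.14 ± 0.29 (adjusted p = 0.936). EIF4EBP1, the mTOR-regulated inhibitor of the cap-binding factor, differed by -0.92 ± 0.40 (adjusted p = 0.392). RICTOR, a subunit of mTOR complex 2, differed by 1.03 ± 0.54 and TIA1, an RNA-binding protein reported to bind TOP messages, by 0.87 ± 0.53. Of 20 translation factors taken as not TOP 0 passed in the comparisons with control, and their medians ran from -0.31 to -0.05. In the MS275 average 1 of them fell, EIF2B3, a subunit of the exchange factor of initiation factor 2 (by 0.80 ± 0.20, adjusted p = 0.0258), named after its value was seen. In that average 8.13% of all genes passed in either direction. EIF5A had a rapamycin average of -0.64 ± 0.52, EIF5B of 0.62 ± 0.32 and EIF1AX of 0.50 ± 0.47.

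Mitochondrial ribosomal proteins, which build a separate ribosome and are not TOP messages, were taken for comparison. Of 75 genes 0 passed in the comparisons with control, and their medians were 0.00 with MS275, 0.03 and -0.05 with 1 and 10 nM rapamycin and -0.40 and -0.38 in the 1 nM and 10 nM combinations. In the MS275 average their median was -0.25 and 11 of 75 were above 0. There 2 of the 75 fell past the threshold, while 8.13% of all genes passed in either direction. These were MRPS15 (by 0.81 ± 0.19, limma adjusted p = 0.0139) and MRPS26 (by 0.46 ± 0.13, adjusted p = 0.0433), both named after their values were seen. On control replicate 3 their median deviation was 0.12, against -0.64 for the cytosolic set. MRPS21 had a rapamycin average of 0.55 ± 0.21, MRPL37 of -0.55 ± 0.24 and MRPS18B of -0.54 ± 0.27 (SE), none of them past the threshold. Of 14 other genes at or above the median brightness of the set, CD74, the invariant chain of class II antigen presentation, rose in both combinations (0.75 ± 0.14 and 0.62 ± 0.15, limma adjusted p = 0.00719 and 0.0375) and in the rapamycin average (0.50 ± 0.09, adjusted p = 0.0053). GAPDH, the glycolytic enzyme often used as a reference, fell by 0.90 ± 0.22 in the 10 nM combination (adjusted p = 0.0412). The medians of these 14 genes against control lay between 0.02 and 0.08.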

How the data were processed

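The authors deposited log2 signals per probe set, for which the submitters' processing notes name affy and RMA. Which versions and settings were used, and whether the arrays were processed together, is not given in the sources used here. Per the labels' protocols, TRIzol was used to extract total RNA, and the amplified RNA carried biotin. The values were used as deposited. Probe sets were named from the platform annotation (41091 with 1 symbol, 1801 with several, 11721 with none). Symbols were updated by Entrez ID through RefSeq (GRCh38.p14), which 41037 matched. Among singly named probe sets the brightest by its 17-array mean stands for the gene. Signal over background is unknown. Precision is limited by the number of arrays.

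In R 4.3.3, limma 3.58.1 (lmFit and eBayes) fitted 6 group means to all 17 arrays, and p-values were adjusted over 19775 genes by the Benjamini-Hochberg method. The method was tested on simulated data. The genes, the lists and the naming rule were chosen with earlier results of these data known. The genes named are members past the threshold, those that are not ribosomal proteins, the paralogs, the 3 largest and 3 smallest changes per subunit in the rapamycin average, the brightest and dimmest 2, and, of each further list, those past the threshold in a comparison with control or otherwise the 3 largest rapamycin averages, with LARP1, EIF4EBP1 and RPS6KB1. Others were chosen after their values were seen, to show what the control arrays hold.

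Alternatives were quantile normalization, array weights, averaged probe sets, only probe sets without an s_at or x_at suffix, a mean signal of at least 6, leaving out the 2 narrow arrays or each array, fitting only the groups compared, and the replicate number as a block. Quantile normalization without the narrow arrays was added after seeing the data. The labels give each group replicate numbers and no word on pairing. Same-numbered arrays deviated together across genes, with correlations above 0.1 for every number in 7 of 10 pairs of groups of 3. Control and 10 nM rapamycin were not such a pair (-0.16 for number 1). In the 10 nM combination the numbers differed. Its replicate 1 correlated with the number 1 arrays of the other groups at 0.07 to 0.39. Its replicate 2 correlated with the number 2 arrays of control at 0.01 and of the other groups at -0.74 to -0.35. Where the numbers pair arrays, only these correlations show it.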

Additional observations from a re-analysis of the deposited data

How the results depend on the processing

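Counts are of the 62 genes past the threshold, and percentages in brackets are the share of all genes that passed in the same fit. Array weights raised the counts most, from 0 to 35 with MS275 (7.61%), to 49 and 43 with 1 and 10 nM rapamycin (14.2% and 9.87%) and to 28 in the 1 nM combination (7.08%), from 2 to 29 in the 10 nM combination (7.86%), from 1 to 27 in the rapamycin average (7.9%) and from 0 to 9 in the MS275 average (16%). The weights were 0.114, 0.536 and 2.92 for control replicates 1 to 3, so among the control arrays the fit leaned on replicate 3. The largest weight of all was 11.3, that of 1 nM rapamycin replicate 1, and 10 nM rapamycin replicate 1 had 3.21. The part of each weight in these counts was not tested. Averaged probe sets gave 1 with MS275 (1.46%), 2 in the 1 nM combination (2.75%), 5 in that with 10 nM (2.97%), 3 in the rapamycin average (2.31%) and 1 in the MS275 average (8.43%). Quantile normalization gave 1 in the 10 nM combination (3.24%) and 0 in the rapamycin average (2.25%). Without the narrow arrays it gave 1 with MS275 (2.56%), 1 in the 1 nM combination (3.15%), 4 in that with 10 nM (4.49%), 0 in the rapamycin average (3.32%) and 2 in the MS275 average (11.7%). Leaving out the narrow arrays alone gave 3 in the 10 nM combination (RPL34, RPL10L and EEF1D, 4.74%), 2 in the rapamycin average (3.26%) and 1 in the MS275 average (11.6%). Probe sets without an s_at or x_at suffix, which cover 36 of the 62 genes, gave 1 in the 1 nM combination (2.16%), 3 in that with 10 nM (RPL34, RPL10L and RPL37, 2.5%), 2 in the rapamycin average (1.77%) and 1 in the MS275 average (7.3%). A mean signal of at least 6 gave 0 in the rapamycin average. Fitting only the groups compared gave 0 in the 10 nM combination, with fewer arrays to estimate the spread, and was not run for the 3 averages, which use all groups. The replicate block gave 1 in the 1 nM combination (RPL34, 5.22%), 3 in the 10 nM combination (6.79%), where EEF1D was added at an adjusted p of 0.0446, and 2 in the rapamycin average (RPL14 and RPL34, 4.13%). The 10 nM combination enters the last pair of fits, and its replicate 2 did not deviate with the arrays of the same number. The block changed no other call of the set. Leaving out 1 array at a time gave 0 to 8 with MS275, with 1 nM and with 10 nM rapamycin and in the 1 nM combination, 0 to 13 in the 10 nM combination, 0 to 9 in the rapamycin average and 0 to 1 in the MS275 average, each highest without control replicate 2, where 2.41% and 7.5% of all genes passed in the averages. The other 7 comparisons kept 0 under every alternative run. The cause of these changes was otherwise not tested. No median of the set in a comparison with control changed its sign under the alternatives run.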

Other observations

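The median deviation of the 75 mitochondrial ribosomal protein genes from their 17-array means is given here by the replicate number of the label, for the groups of 3. It lay between 0.12 and 0.61 on the 5 arrays numbered 3, between -0.57 and 0.25 on the 5 numbered 2 and between -0.49 and 0.23 on the 5 numbered 1, and these ranges overlap. In the 10 nM combination it was -0.68 on replicate 1 and 0.25 on replicate 2. For the 62 cytosolic genes the ranges over the arrays numbered 3, 2 and 1 were -0.64 to 0.16, -0.05 to 0.04 and -0.23 to 0.11, and each of the 3 lowest values is that of a control array. What the replicate numbers stand for is not stated, and no difference between them was tested.

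Other probe sets of the same genes bear on the choice of the brightest. Of 28 further probe sets with a mean of at least 12, which cover 19 genes, 28 had the sign of the chosen one in the rapamycin average and 26 on control replicate 3. Of 47 dimmer ones, 28 and 37 did. The median deviation on control replicate 3 was -0.56 over the 28 and -0.32 over the 47. Their median rapamycin average was 0.35 over the 28 and 0.07 over the 47, against 0.23 for the chosen probe sets of the 62 genes.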
